A study of Mus musculus with 16 samples.

Results

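Cortical thymic epithelial cells (cTEC) and medullary thymic epithelial cells low in MHC class II (mTEClo) of wild-type mice were compared across all genes in bulk RNA sequencing. The comparison takes every wild-type library of the 2 populations in the authors' count table, 2 of cTEC and 3 of mTEClo, which are 5 of the 16 libraries of the series. The other 11 libraries hold mTEChi, the medullary cells with high MHC class II, and all 3 populations of mice that lack Psmb11. That gene encodes beta5t, a subunit of the thymoproteasome, and the study set these mice against the wild type. All 5 libraries carry the label psmb11 +/+ and the strain label C57BL/6-derived BAC, and the tissue is the thymus. From cells negative for the leukocyte antigen CD45 and positive for the epithelial antigen EpCAM, cTEC were sorted as Ly51-positive and UEA1-negative. The mTEC were sorted as Ly51-negative and UEA1-positive, and mTEClo are those with low MHC class II. Ly51 is the surface peptidase encoded by Enpep, and UEA1 is a lectin that binds fucosylated sugars on medullary cells. The labels differ on the animals: sample labels and series text give an age of 6 to 8 weeks and the latter 11 thymi, while the extraction protocol gives 7 days and 14 mice. How many mice each library pools is not stated, so the spread behind the p-values is that of libraries and may be technical. At least 10 ng of RNA went into each unstranded TruSeq library.

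The thymus makes T cells in 2 compartments. In the cortex, cTEC attract precursors, commit them to the T lineage through Notch ligands, and present self peptides made by the thymoproteasome and lysosomal proteases for positive selection. In the medulla, mTEC display antigens of other tissues for negative selection, partly under Aire. The MHC class II-low fraction mixes immature cells, chemokine-producing cells and cells that take on the look of other epithelia, among them tuft, keratinised, endocrine, ciliated and muscle-like cells, often called mimetic cells.

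The libraries held between 92178798 and 103440678 reads in genes, so that 3 reads equal at most 0.0325 CPM (read counts scaled to library size by TMM). Reads in no gene made up 17.6% to 22.6%. The 2 cTEC libraries differed more from each other than the mTEClo libraries did: the biological coefficient of variation, fitted in each population alone, was 0.381 in cTEC and 0.0981 in mTEClo, and the correlation of log2 CPM across genes was 0.957 for the cTEC pair and 0.988 to 0.992 for the mTEClo pairs. Of 17213 genes tested with edgeR's quasi-likelihood test and Benjamini-Hochberg adjustment (threshold 0.05), 3856 (22.4%) were higher in cTEC and 4453 (25.9%) higher in mTEClo, 48.3% in either direction. The median log2 fold change of all genes tested was -0.02. Counts of called list members below are to be read beside the shares of 22.4% and 25.9%. Without cTEC 1 or cTEC 2, a fit of these 5 libraries takes its spread from mTEClo alone. Calls, counts and p-values given below for such fits therefore measure no spread in cTEC. Fold changes are given as cTEC over mTEClo on the log2 scale unless stated, with standard errors (SE), and SDs follow ±.

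Genes that define cTEC were higher in the libraries labelled cTEC. Of 20 cortical markers tested, 16 were higher in cTEC and 1 in mTEClo. Their median was 2.28 against -0.02 over all genes tested. Prss16, the thymus-specific serine protease of the class II pathway (chromosome 13, 22002176 to 22009741, mm10), stood at 1185 and 959.9 CPM in the cTEC libraries and 42.3, 68.5 and 51.2 CPM in mTEClo. Psmb11 (chromosome 14, 54625310 to 54629556) stood at 163 and 136 CPM in cTEC and 7.31, 11.8 and 8.00 in mTEClo. In mTEClo both genes were thus low but not at 0, and neither overlapped between the populations, as was the case for 65.6% of all genes tested. The log2 fold change was 4.31 for Prss16 (SE 0.17, edgeR adjusted p = 9.74e-09) and 4.04 for Psmb11 (SE 0.15, edgeR adjusted p = 9.14e-09). In the knockout libraries of the same populations Psmb11 had 0 and 157 reads in cTEC and 111 to 177 reads in mTEClo, against 12756 and 15214 in wild-type cTEC. Enpep, whose product Ly51 was used in the sort (chromosome 3, 129269177 to 129332749), had 180.4 and 199 CPM in cTEC and 11.2, 13.7 and 17.7 in mTEClo.

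Further cortical markers were signals to thymocytes or surface receptors, and most but not all were higher in cTEC. Kitl, which encodes stem cell factor for the earliest thymocytes (chromosome 10, 100015824 to 100100412), was at 174 and 184 CPM in cTEC and 12.8, 14.6 and 16.7 in mTEClo, a log2 fold change of 3.61 (SE 0.10, edgeR adjusted p = 2.56e-09). Cd83, a membrane protein that stabilises MHC class II and is needed for CD4 T cell selection, was at 76.9 and 61.4 CPM in cTEC and 3.17, 3.15 and 2.87 in mTEClo (22.6-fold). The decoy chemokine receptor Ackr4, listed under its older symbol Ccrl1, averaged 357 ± 13.0 CPM in cTEC and 52.1 ± 1.24 in mTEClo (SD, n = 2 and 3, as for all later values with ±). The endocytic receptor Ly75, also known as CD205, averaged 320.4 ± 58.2 and 55.0 ± 3.03 CPM. Dll4, the Notch ligand that commits thymocyte precursors, was lower in level, at 37.1 and 31.8 CPM in cTEC and 10.8, 13.2 and 9.83 in mTEClo (3.05-fold, edgeR adjusted p = 2.51e-06). The step was smaller for the protease Ctsl (2.05-fold, 3448 ± 397 against 1680.0 ± 136 CPM) and for Foxn1, the master regulator of thymic epithelium (1.81-fold, 150.1 and 134 CPM in cTEC and 75.7, 83.1 and 77.1 in mTEClo). Krt8, a keratin of simple epithelia often used to stain the cortex, did not pass the test, with 1103 ± 21.3 CPM in cTEC and 1262 ± 32.6 in mTEClo (log2 fold change -0.19, SE 0.08), nor did Krt18 (1501 ± 39.0 against 1396 ± 65.5 CPM) and Il7, described with the growth factors. The 1 cortical marker higher in mTEClo was the secreted growth factor Fgf21 (3.64 ± 0.425 against 26.7 ± 1.68 CPM).

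The promoters of 3 of these markers are shown because their genes were higher in cTEC together and because Foxn1 is known to bind the core GACGC in genes that it controls. They were chosen after the values were seen, and only promoters that hold a match are shown. Each run is the 250 bases before the start of the gene in RefSeq (GRCm38.p6, the assembly of mm10), 5′ to 3′ on the strand of the gene. Capitals mark GACGC or its complement GCGTC, and both strands were searched.
Psmb11 (chr14:54625060-54625309, plus strand): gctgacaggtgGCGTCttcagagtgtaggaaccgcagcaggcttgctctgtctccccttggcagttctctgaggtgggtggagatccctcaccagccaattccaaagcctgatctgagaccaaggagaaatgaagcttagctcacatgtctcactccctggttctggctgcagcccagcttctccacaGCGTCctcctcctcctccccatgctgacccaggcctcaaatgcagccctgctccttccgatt
Kitl (chr10:100015571-100015820, plus strand): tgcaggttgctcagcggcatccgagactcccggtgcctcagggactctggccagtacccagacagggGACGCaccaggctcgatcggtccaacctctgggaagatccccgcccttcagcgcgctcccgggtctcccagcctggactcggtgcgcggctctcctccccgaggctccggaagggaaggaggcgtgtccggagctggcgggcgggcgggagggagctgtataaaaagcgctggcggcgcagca
Enpep (chr3:129332750-129332999, minus strand): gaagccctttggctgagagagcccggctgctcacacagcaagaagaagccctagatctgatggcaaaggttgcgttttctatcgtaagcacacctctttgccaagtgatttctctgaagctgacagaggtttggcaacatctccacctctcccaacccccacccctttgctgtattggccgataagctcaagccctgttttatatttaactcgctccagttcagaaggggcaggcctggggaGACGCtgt
The matches began 239 and 62 bases before the start of Psmb11, 183 bases before that of Kitl and 8 bases before that of Enpep. Of 16 promoters of the 15 cortical markers, of 19 looked up, that the RefSeq table held, 7 (43.8%) had a match. Among them were those of Ccl25, Cxcl12, Pax1 and the mTEClo-high Fgf21. No match stood in those of Ly75, Dll4, Ctsl, Tbata, Krt8, Krt18, Foxn1 and Bmp4. Ackr4, listed here as Ccrl1, was not among the 19, and its promoter held no match, so the share is somewhat too high. The share was 22.6% of all 32851 promoters in the table and 33.3% of the 15821 promoters matched to genes tested here. The letters hold a CpG, and the windows held a median of 9.5 CpG in the cortical markers and 13 in the genes tested. A match is a description of these letters and no evidence of binding.

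Medullary markers leaned the other way, with exceptions. Of 18 tested, 14 were higher in mTEClo and 2 in cTEC (median log2 fold change -1.28). Spib, a transcription factor of medullary and microfold-like cells, was at 45 and 43.7 CPM in cTEC and 347, 331 and 333 in mTEClo (7.603-fold higher in mTEClo, edgeR adjusted p = 2.56e-09). Fezf2, which drives a part of the tissue antigens of mTEC, was at 51.5 and 35.1 CPM in cTEC and 211, 213 and 186 in mTEClo. Tnfrsf11a, the receptor RANK that drives mTEC maturation, was at 40.5 and 40.2 CPM in cTEC and 137, 131 and 127 in mTEClo. The folds were 4.70-fold for Fezf2 and 3.26-fold for Tnfrsf11a, with both cTEC libraries under all mTEClo libraries. Of all genes tested, 65.6% did not overlap, in either direction. Krt14 averaged 580.1 ± 5.10 CPM in cTEC and 1881 ± 33.8 in mTEClo (3.24-fold), and Krt5 2996 ± 249.7 and 4979 ± 211 CPM (1.66-fold). These 2 keratins of basal epithelium, used to define mTEC, were therefore abundant in the cTEC libraries as well: per length, Krt5 reached 1046 RPKM there (read counts scaled to gene length and library size, the authors' values) and 1814 RPKM in mTEClo. Trp63, the p63 factor of basal epithelium, was higher in cTEC (944 ± 21.8 against 548 ± 21.1 CPM, edgeR adjusted p = 1.02e-05), as was the costimulatory Cd86 at a low level (2.36 and 2.37 CPM in cTEC against 0.942, 1.49 and 0.987 in mTEClo, edgeR adjusted p = 0.0201), a call that 10 of 21 alternative settings did not keep, among them the fits without mTEClo 1 (0.0944) or mTEClo 3 (0.0718). Aire, which marks mature mTEC, was at 13.1 and 10.4 CPM in cTEC and 16.8, 11.2 and 7.67 in mTEClo. It did not differ by the test (log2 fold change -0.01, SE 0.26, edgeR adjusted p = 0.97). The mean in the 3 wild-type mTEChi libraries was 1522 CPM, scaled over all 16 libraries rather than the 5. The medullary chemokine Ccl21a is listed at 0 in every library and has near-identical gene copies, so that its level is uncertain. Of 19 genes of precursors and Ccl21-producing mTEClo, 10 were higher in mTEClo, among them Ly6d (3.81-fold) and Sox4 (2.50-fold), and 4 in cTEC, among them the surface mucin Pdpn (1.55-fold) and Apoe (1.48-fold).

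**Figure D1:**
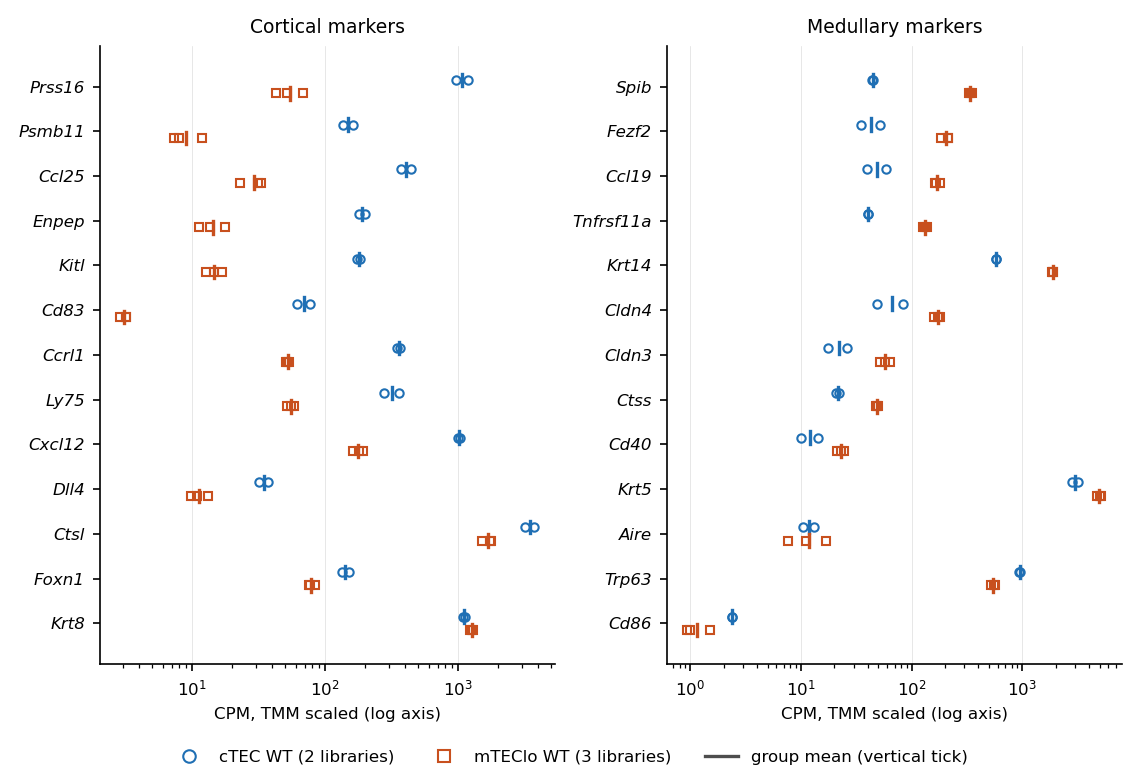
CPM of cortical markers (left) and medullary markers (right) in each wild-type library, on log axes, with 1 point per library and a vertical tick at the group mean. The cTEC points lie to the right of the mTEClo points for 12 of the 13 cortical genes drawn and to the left of them for 10 of the 13 medullary genes, while Aire overlaps and Trp63 and Cd86 lie to the right.

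The genes with the largest differences toward cTEC were few and partly outside the classical marker set. At least 2-fold differences numbered 1088 toward cTEC (6.32% of genes tested) and 2541 toward mTEClo (14.8%), and at least 16-fold differences 54 and 558. Among the genes that the naming rule given below admits, Scn1a had the smallest p-value. It encodes a voltage-gated sodium channel of neurons (chromosome 2, 66270782 to 66440837). Scn1a was at 277 and 274 CPM in cTEC and 7.501, 7.35 and 9.21 in mTEClo. Its log2 fold change was 5.11 (SE 0.10, edgeR adjusted p = 4.71e-10). Prss23, a secreted serine protease, was at 97.6 and 69.1 CPM in cTEC and 2.38, 2.45 and 2.59 in mTEClo. Gpm6b, a membrane proteolipid, was at 102 and 111 CPM in cTEC and 4.36, 4.66 and 5.37 in mTEClo. In all 3, the mTEClo values lay close together and far under both cTEC values. Enzymes stood among the leading genes too: Mgll, which breaks down monoacylglycerols including an endocannabinoid, averaged 379 ± 1.32 CPM in cTEC and 43.1 ± 2.50 in mTEClo, and Abat, which breaks down the transmitter GABA, 102 ± 9.08 and 5.96 ± 0.521 CPM. Phex, a membrane peptidase of phosphate metabolism, averaged 24.7 ± 2.39 and 0.774 ± 0.267 CPM, and Npr3, the clearance receptor for natriuretic peptides, 11.7 ± 3.69 and 0.382 ± 0.0741 CPM. Matrix proteins of connective tissue were in the same set. Ogn had the largest fold toward cTEC among genes with an established symbol that the naming rule given below admits. It was at 21.2 and 26.6 CPM in cTEC and 0.372, 0.426 and 0.483 in mTEClo (55.8-fold). Serpinf1 averaged 61.9 ± 1.93 and 3.47 ± 0.0844 CPM, and Prelp 445 ± 12.9 and 50.8 ± 4.51 CPM. Markers of fibroblasts moved with these and are given with the other cell types.

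Toward mTEClo, the leading genes were of mixed kinds. Kallikrein peptidases of shedding skin were among the largest folds. Klk13 and Klk6 had no read in cTEC and averaged 7.55 ± 0.695 and 6.10 ± 1.11 CPM in mTEClo, so that Klk13 was at least 470.4-fold and Klk6 at least 380.3-fold higher in mTEClo, against a floor of 3 counts over both cTEC libraries. Ffar2, a receptor for short-chain fatty acids, also had no cTEC read (at least 331-fold). Klk7 was at 0.0107 and 0.0321 CPM in cTEC and 30.6, 28.7 and 23.6 in mTEClo. Clca4, a calcium-activated chloride channel regulator of mucosal surfaces, was at 0.888 and 1.95 CPM in cTEC and 148, 124 and 126 in mTEClo, a log2 fold change of -6.55 (SE 0.20, edgeR adjusted p = 3.71e-09). Cd177, known from neutrophils, was at 2.84 and 0.128 CPM in cTEC and 261, 228 and 269 in mTEClo, so its 2 cTEC libraries differed widely and both lay far under mTEClo. Among the genes that the naming rule admits, the smallest p-value toward mTEClo was that of Gfra2, the neurturin receptor (chromosome 14, 70890130 to 70979838). Gfra2 was at 7.11 and 5.96 CPM in cTEC and 128, 127 and 119 in mTEClo (log2 fold change -4.26, SE 0.11, edgeR adjusted p = 1.80e-09). Entpd3, an ectonucleotidase, Car8, a carbonic anhydrase-related protein, and Scn3b, a sodium channel beta subunit, averaged 99.2, 102 and 95.6 CPM in mTEClo and 11.5, 4.12 and 8.52 CPM in cTEC.

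**Figure D2:**
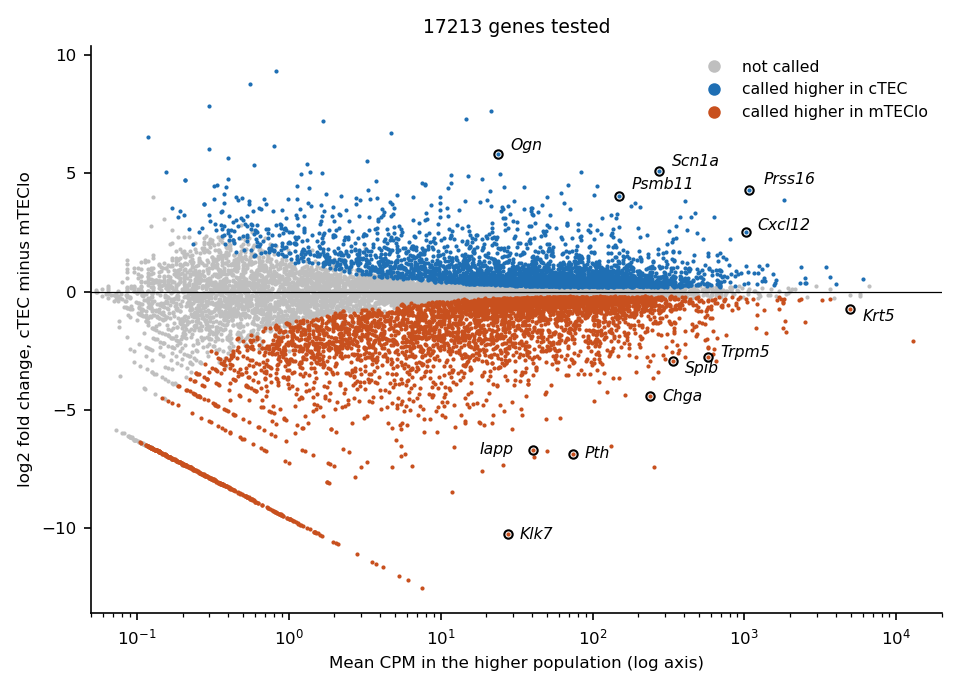
Log2 fold change, cTEC minus mTEClo, against the mean CPM of the higher population (log axis) for the 17213 genes tested, with 1 point per gene. Calls toward mTEClo reach farther from 0 than calls toward cTEC, and the straight diagonal edge at the lower left is made of genes with no read in cTEC, whose fitted fold is set by the prior count of the fit.

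More genes were detected in the mTEClo libraries. After thinning every library to 92178798 reads, 17308 and 16482 genes had at least 1 read in cTEC, and 18786, 18614 and 18291 in mTEClo, a difference of 1669 genes (exact permutation test, two-sided p = 0.1, the smallest that 5 libraries allow). With 5 reads as the limit, the numbers were 16794 and 16147 against 17649, 17613 and 17448. Genes with no read in both cTEC libraries and reads in all mTEClo libraries numbered 679. Among all genes with no read in cTEC, 33 averaged at least 1 CPM in mTEClo. Genes with no read in any mTEClo library and reads in both cTEC libraries numbered 18. Among all genes with no read in mTEClo, 2 averaged at least 1 CPM in cTEC. Most of these absences thus concern low levels.

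Tuft cell genes were higher in mTEClo without exception among those tested. Tuft cells are chemosensory epithelial cells that use the taste transduction pathway and release interleukin 25 and lipid mediators. All 29 list members were tested and all 29 were higher in mTEClo. The median log2 fold change was -2.50, and the summed level was 4362 to 4540 CPM in mTEClo against 815 to 942 CPM in cTEC. Pou2f3, the factor that specifies tuft cells (chromosome 9, 43123939 to 43205755), was at 22.9 and 20.5 CPM in cTEC and 95.5, 93.7 and 93.8 in mTEClo (4.34-fold higher in mTEClo, edgeR adjusted p = 1.46e-08). Trpm5, the cation channel of taste signalling, was at 94.2 and 77.3 CPM in cTEC and 602, 561 and 567 in mTEClo (6.73-fold). The 3 mTEClo libraries lay within a few percent of each other for these genes, and far above both cTEC libraries. Of the other taste transduction members, Gnb3 and Gnat3, subunits of the taste G protein, had the largest folds, 12.5-fold and 10.8-fold. Gnat3 was uneven in cTEC (16.2 and 5.69 CPM in cTEC, 122, 112 and 121 in mTEClo), and the phospholipase Plcb2 was 7.29-fold higher in mTEClo. The leukotriene genes Alox5ap (5.79-fold), Alox5 (5.12-fold) and Ltc4s (5.67-fold) and the cytokine Il25 (3.63 and 5.196 CPM in cTEC against 18.9, 23.9 and 25.9 in mTEClo) were higher in mTEClo too. The smallest steps were those of Hpgds (2.32-fold) and Itpr2 (2.47-fold). In sorted bulk RNA, fewer cells of a type and less RNA per cell cannot be told apart. The octamer ATGCAAAT that Pou2f3 and related factors bind, or its complement ATTTGCAT, stood in 1 of 28 promoters of the 24 tuft genes matched to RefSeq (3.57%), that of Hpgds, against 1.60% of all promoters.

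Skin-barrier genes gave the largest shift of any list outside the 4 parathyroid-type genes. All 24 cornified envelope genes tested of 25 in the table were higher in mTEClo, with a median log2 fold change of -3.83. Lor, the main protein of the cornified envelope, was at 0.695 and 1.08 CPM in cTEC and 32.4, 21.6 and 19.4 in mTEClo. Its partner Ivl was at 0.631 and 1.26 CPM in cTEC and 12.3, 12.3 and 10.3 in mTEClo, and Dsg1a, a desmoglein of the upper epidermis, at 17.0 and 19.6 CPM in cTEC and 194, 183 and 201 in mTEClo. Flg2 had no read in cTEC and 4.94, 4.49 and 3.13 CPM in mTEClo (at least 261-fold). Barrier genes in cTEC thus ranged widely, from no read to 104 CPM for the protease inhibitor Spink5. Of 22 keratins tested, 14 were higher in mTEClo and 2 in cTEC. The keratins of the suprabasal and cornifying layers, Krt10 (13.8 and 13.8 CPM in cTEC against 135, 124 and 90.0 in mTEClo), Krt77 (0.342 and 0.310 CPM in cTEC against 42.4, 49.4 and 32.3 in mTEClo) and Krt78 (2.01 and 2.76 CPM in cTEC against 48.0, 54.2 and 43.1 in mTEClo), were among those with the largest differences. Krt17 (2.42-fold) and Krt7 (1.52-fold) moved less. Krt19 (1.31-fold) and the hair keratin Krt36 (1.94 against 0.816 CPM) were the 2 higher in cTEC. The list count toward cTEC was 4 without cTEC 1. The calls of both were lost when 1 library was left out, that of Krt19 without cTEC 2 (edgeR adjusted p = 0.219) or mTEClo 3 (0.097) and that of Krt36 without mTEClo 1 (0.0654).

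Endocrine and neuroendocrine genes were mostly higher in mTEClo as well, 17 of 23 tested against 2 in cTEC (median -2.66). Chga, the secretory granule protein chromogranin A, was at 5.03 and 17.4 CPM in cTEC and 177, 236 and 303 in mTEClo, and Snap25, a protein of vesicle fusion, at 0.653 and 0.706 CPM in cTEC and 18.6, 17.0 and 21.1 in mTEClo. Scg2, another granule protein, was at 5.42 and 6.33 CPM in cTEC and 55.5, 70.7 and 76.0 in mTEClo (11.5-fold higher in mTEClo, edgeR adjusted p = 3.35e-08). Cpe, which trims prohormones, and Cck, the hormone cholecystokinin, went the other way (2.93-fold and 2.19-fold higher in cTEC). The 4 genes associated with parathyroid cells were all higher in mTEClo: Pth at 1.28 and 0 CPM in cTEC and 33.1, 70.9 and 118 in mTEClo, the calcium receptor Casr at 4.76 and 4.53 CPM in cTEC and 44.3, 44.0 and 39.3 in mTEClo, Chga as above, and Gcm2 with no read in cTEC and 0.414, 0.513 and 2.23 CPM in mTEClo. Pth and Gcm2 differed widely among the mTEClo libraries, with the highest values in mTEClo 3, while Casr did not. The libraries' content of parathyroid tissue was not tested.

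Among antigens of other tissues, 53 of the list were in the table, 38 passed the filter on low counts and 24 of these were higher in mTEClo, against 2 in cTEC (6 without cTEC 1, median of all tested -2.03). Iapp, the islet peptide amylin, was at 0.514 and 0.257 CPM in cTEC and 38.2, 35.7 and 47.1 in mTEClo, and the liver acute-phase gene Crp at 1.02 and 1.96 CPM in cTEC and 57.8, 66.4 and 59.6 in mTEClo. The stomach peptide Tff1 and the intestinal lectin Reg3g were 25.2-fold and 4.24-fold higher in mTEClo. The strongest exception was Bpifa1, a secreted airway protein, at 902 and 2770.4 CPM in cTEC and 116, 165 and 98.8 in mTEClo (14.5-fold, edgeR adjusted p = 7.60e-06). Its 2 cTEC libraries differed about as much from each other as many genes did between populations. The summed level of the list, Bpifa1 included, was therefore higher in cTEC, at 1116 and 3038 CPM against 774 to 894 CPM in mTEClo.

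Muscle genes followed with 12 of 16 tested higher in mTEClo and 1, Myh8 at 0.412 CPM, higher in cTEC. That call was lost without cTEC 1, mTEClo 1 or mTEClo 3 (edgeR adjusted p = 0.102 to 0.123). Myog, which specifies muscle, was at 0.877 and 0.364 CPM in cTEC and 8.95, 9.81 and 7.96 in mTEClo, and the skeletal actin Acta1 at 0.0856 and 0.0107 CPM in cTEC and 3.71, 8.59 and 5.08 in mTEClo. The acetylcholine receptor subunits Chrna1 and Chrnd, targets in myasthenia gravis, were 4.66-fold and 10.1-fold higher in mTEClo. Myh1, a myosin heavy chain of fast muscle that was not on the list, was in contrast at 19.2 and 18.3 CPM in cTEC and 0.269, 1.54 and 0.206 in mTEClo. Ciliated cell genes split 11 to 2 of 16 tested. Foxj1, the factor of motile cilia, was 2.96-fold higher in mTEClo and the axonemal dynein Dnahc5 3.06-fold, whereas Trp73, a p53 relative needed for multiciliated cells, was 2.58-fold higher in cTEC (46.5 and 36.6 CPM in cTEC against 16.8, 16.3 and 15.3 in mTEClo) and Ccdc39 2.51-fold. Of 14 microfold-like genes, 13 were higher in mTEClo. Ccl20, Ccl9 and Ccl6 led with 15.1-fold, 8.69-fold and 7.52-fold, while the microfold receptor Gp2 was 1.73-fold higher. Factors that specify these lineages were higher in mTEClo in 21 of 26 tested and in cTEC in 1, Trp73. The ionocyte factor Foxi1, the pancreatic factor Ptf1a and the gut factor Hnf4a were low in level, at 7.24, 0.609 and 3.56 CPM in mTEClo and 0.358, 0 and 0.775 CPM in cTEC.

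**Figure D3:**
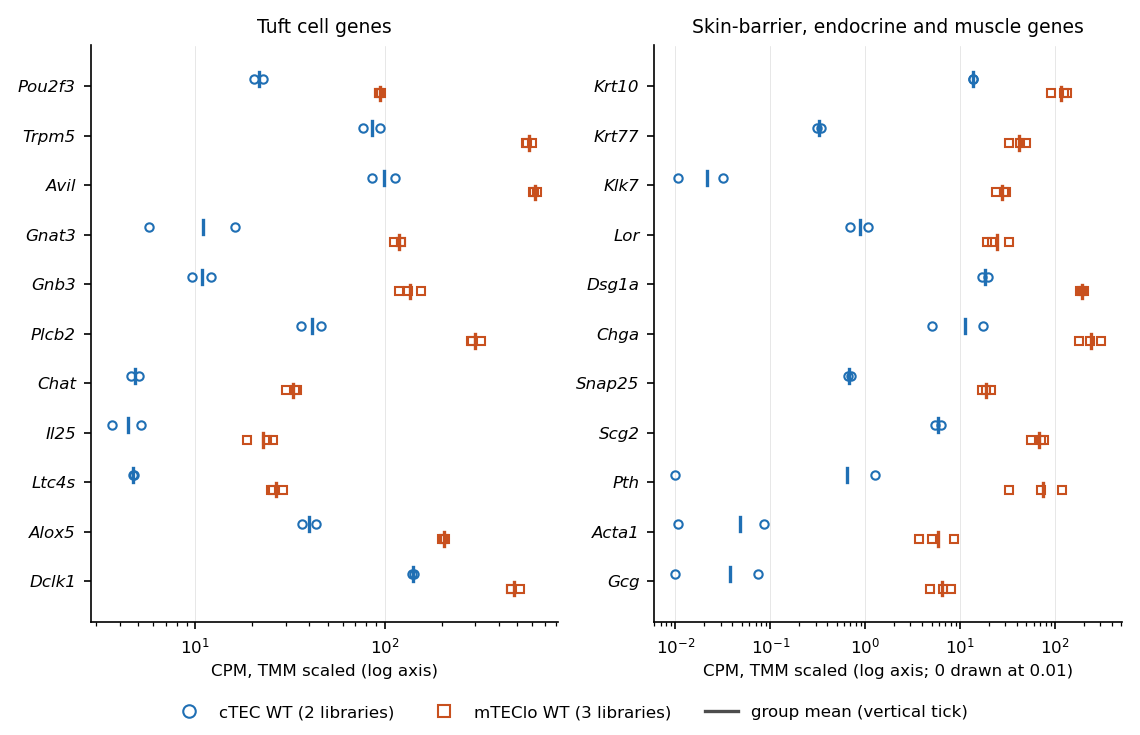
CPM of tuft cell genes (left) and of genes of skin barrier, endocrine cells and muscle (right) in each wild-type library, on log axes, with a vertical tick at the group mean and libraries without a read drawn at 0.01. The 3 mTEClo points lie to the right of both cTEC points for all 22 genes drawn, and Gnat3, Chga, Pth, Acta1 and Gcg have cTEC points far apart.

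Signals that recruit and feed thymocytes were divided between the populations rather than shifted to one. Of 24 chemokine genes and decoy receptors tested, 7 were higher in cTEC and 9 in mTEClo, beside 22.4% and 25.9% of all genes tested. Cxcl12 and Ccl25 attract thymocyte precursors. Cxcl12 was at 1039 and 995 CPM in cTEC and 162, 179 and 192 in mTEClo, a log2 fold change of 2.52 (SE 0.09), and Ccl25 was at 444 and 372 CPM in cTEC and 22.7, 33.1 and 31.2 in mTEClo, a log2 fold change of 3.81 (SE 0.14). Neither overlapped between the populations, as was the case for 65.6% of all genes tested. Toward mTEClo, Cxcl14 moved most (9.61 and 5.99 CPM in cTEC, 146, 186 and 159 in mTEClo), followed by the interferon-induced Cxcl9 (7.23-fold), Ccl11 (3.87-fold) and Ccl19, which draws thymocytes into the medulla (39.4 and 58.4 CPM in cTEC against 165, 161 and 179 in mTEClo). Ccl22 (47.6 and 23.2 CPM in cTEC, 2.63, 3.81 and 3.05 in mTEClo) and Ccl5 (33.4 and 20.9 CPM in cTEC and 8.70, 8.09 and 8.26 in mTEClo) were higher in cTEC, and both are also made by leukocytes, whose markers are given with the other cell types. Of 18 growth and survival factors, 8 were higher in cTEC and 3 in mTEClo (5 without cTEC 1). Beside Kitl, these included Gas6, a ligand of receptors that clear dying cells (2343 ± 53.0 against 1129 ± 33.1 CPM), Csf1 (1.62-fold), Igf1 (2.22-fold) and Bmp4 (10.5 ± 1.46 against 2.18 ± 0.429 CPM). Il7, the main survival factor of early thymocytes, averaged 324 ± 24.8 CPM in cTEC and 298 ± 22.1 in mTEClo and did not pass the test (log2 fold change 0.12, SE 0.09, edgeR adjusted p = 0.267).

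In the Notch pathway, most classical ligands were higher in cTEC, and target genes were divided. The ligands Dll4, Jag2 (588 ± 49.2 against 298 ± 23.4 CPM) and Dll1 (147 ± 2.67 against 75.6 ± 5.96 CPM) and the noncanonical ligand Dlk2 (5.97-fold) were higher in cTEC, and Dll3, known as an inhibitory ligand, was higher in mTEClo (9.65-fold). The target genes Heyl (38.8 and 21.0 CPM in cTEC, 94.8, 120.3 and 101 in mTEClo) and Nrarp (12.1 and 10.5 CPM in cTEC and 40.3, 40.6 and 32.4 in mTEClo), as well as the receptor Notch2 (1.41-fold), were higher in mTEClo. The target Hes1 (58.5 ± 0.656 against 52.1 ± 2.49 CPM) and the receptor Notch1 (284 ± 9.99 against 308 ± 19.7 CPM) did not pass the test, and the targets Hey1 and Hey2 were 1.75-fold and 1.38-fold higher in cTEC. In all, 8 of 27 pathway genes were higher in cTEC and 9 in mTEClo, near the 22.4% and 25.9% of all genes tested.

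Although mTEClo were sorted for low MHC class II protein, transcripts of the class II chains differed little between the populations. Cd74, the invariant chain, averaged 6573 ± 286 CPM in cTEC and 5621 ± 179 in mTEClo, and H2-Ab1 2945 ± 202 and 2496 ± 34.8 CPM, and neither passed the test. In wild-type mTEChi the means were 14813 and 5012 CPM. Of 15 genes of the pathway 8 were higher in cTEC and none in mTEClo (1 without cTEC 1), most by little: H2-Aa 1.28-fold, and the chains of the peptide-exchange molecule, H2-DMb1 1.43-fold and H2-DMa 2.03-fold (225 and 251 CPM in cTEC, 114, 116 and 122 in mTEClo). Lysosomal proteases and their inhibitors went both ways, while their summed level was 5871 to 6414 CPM in cTEC and 3354 to 3581 CPM in mTEClo. Prss16, Ctsl and Tpp1 (1.46-fold) were higher in cTEC, and Ctss (20.7 and 22.1 CPM in cTEC, 48.7, 49.4 and 47.5 in mTEClo), Ctsc (2.84-fold), Ctsz (1.98-fold) and the protease inhibitor Cst6 (7.46-fold) in mTEClo, with 6 and 8 of 18 in all. Ctsb (321 ± 14.8 against 327 ± 10.8 CPM) and Ctsd (296 ± 41.2 against 295 ± 16.8 CPM) did not pass the test.

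For MHC class I, the transactivator Nlrc5 (1.59-fold) and the heavy chains H2-K1 (1.247-fold) and H2-D1 (1.24-fold) were slightly higher in mTEClo, and the peptide-trimming enzyme Erap1 (1.41-fold) in cTEC, 4 and 1 of 17 tested. The calls of H2-K1 and H2-D1 were lost without mTEClo 1 (edgeR adjusted p = 0.0969 and 0.0599) or mTEClo 2 (0.107 and 0.0611), and that of H2-K1 also without cTEC 1 (0.0727). The list count toward mTEClo was 2 without mTEClo 1 and 1 without mTEClo 2, and that toward cTEC was 2 without cTEC 1 and 3 without mTEClo 3. Of 17 catalytic and activator genes of the proteasome 3 were higher in cTEC and 5 in mTEClo, and only Psmb11 differed by 2-fold or more. Its counterparts at the same position of the core, Psmb5 of the constitutive proteasome (39.0 ± 0.518 CPM in cTEC, 40.5 ± 1.84 in mTEClo) and Psmb8 of the immunoproteasome (133 ± 11.2 and 174 ± 3.79 CPM), differed by 1.04-fold, which did not pass the test, and by 1.30-fold toward mTEClo. Per length, Psmb11 reached 27.1 RPKM in cTEC beside 33.2 RPKM for Psmb5 and 85.5 RPKM for Psmb8. The immunosubunits Psmb9 (1.46-fold) and Psmb10 (1.18-fold) were higher in cTEC, the latter call being lost without mTEClo 2 (edgeR adjusted p = 0.058). Of 29 genes of the constitutive core and the regulatory particle, 6 were higher in mTEClo (3 without mTEClo 1 or mTEClo 2) and none in cTEC (1 without mTEClo 3), the largest step being that of Psmd8 (1.38-fold). Ubd, the ubiquitin-like modifier FAT10, was 1.75-fold higher in mTEClo. Autophagy, which feeds class II peptides in cTEC, showed few differences among 29 genes, 3 toward cTEC and 2 toward mTEClo. The counts were 7 toward cTEC without cTEC 2 and, toward mTEClo, 6 without cTEC 1 and 1 without mTEClo 1 or mTEClo 2. Lamp2, a lysosomal membrane protein (1246 ± 85.3 against 597 ± 52.6 CPM), and the cargo receptor Optn (2.33-fold) were higher in cTEC and Map1lc3a (1.97-fold) in mTEClo.

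Receptors and regulators of NF-kB signalling, which drives medullary development, were higher in mTEClo in 14 of 26 genes and in cTEC in 4. Beside Tnfrsf11a, these were the receptor Cd40 (14.1 and 9.94 CPM in cTEC, 22.9, 24.4 and 21.3 in mTEClo), the feedback inhibitors Tnfaip3 (283 ± 5.61 against 566 ± 59.0 CPM) and Nfkbia (1.67-fold), and the subunits Relb (1.65-fold) and Nfkb2 (1.58-fold) of the noncanonical pathway. The canonical subunits Nfkb1 (495 ± 0.879 against 285 ± 2.98 CPM) and Rel (1.94-fold) were higher in cTEC. Of 18 costimulatory and coinhibitory ligands, 7 were higher in mTEClo, led by the galectin Lgals1 (3.97-fold), and 2 in cTEC, Cd86 and Cd274, the inhibitory ligand PD-L1 (659.5 ± 61.9 against 391 ± 52.0 CPM). Cd80 (6.12 ± 0.776 against 7.31 ± 0.293 CPM) did not pass the test.

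Factors of thymus formation and morphogen pathways were divided. Of 30 organogenesis factors, 14 were higher in cTEC, among them Pax1 (658 ± 19.9 against 225 ± 15.99 CPM), Isl1 (1.82-fold), Meis1 (1.76-fold), Pax9 (1.504-fold) and, at low level, Tbx1 (4.898 against 0.877 CPM). Higher in mTEClo were 7, among them Ehf (3.41-fold) and Elf3 (3.30-fold), ETS factors of differentiated epithelium. In the Wnt pathway 19 of 45 genes were higher in cTEC and 14 in mTEClo (9 without mTEClo 1). The ligand Wnt6 (37.9 ± 3.49 against 8.65 ± 0.309 CPM), the receptor Fzd3 (2.46-fold), the transcription factor Tcf7l2 (2.08-fold) and the pathway inhibitor Nkd1 (3.09-fold) were higher in cTEC. The ligand Wnt10a (2.38-fold), the secreted antagonist Sfrp5 (0.471 and 0.257 CPM in cTEC, 15.7, 11.8 and 13.3 in mTEClo) and the antagonist receptor Kremen2 (4.22-fold) were higher in mTEClo. BMP and TGF-beta genes split 18 to 12 of 45. The receptors Tgfbr3 (333 ± 17.1 against 78.2 ± 4.597 CPM) and Tgfbr2 (272 ± 6.76 against 91.3 ± 6.12 CPM) and the decoy receptor Bambi (3.86-fold) were higher in cTEC, and the ligands Bmp2 (4.25-fold) and Bmp7 (2.21-fold) and the BMP target Id1 (1.597-fold) in mTEClo, while Bmp4 was higher in cTEC. FGF genes leaned to cTEC, 11 of 23 against 3. The ligands Fgf1 (96.1 ± 5.92 against 25.5 ± 1.62 CPM) and Fgf9 (2.07-fold), the receptor Fgfr1 (2.36-fold) and the feedback inhibitor Spry2 (1.62-fold) were higher in cTEC, and the receptor Fgfr4 (7.57-fold) in mTEClo.

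Retinoid metabolism differed in both directions. The retinaldehyde dehydrogenases Aldh1a1 (49.4 and 50.9 CPM in cTEC, 2.92, 3.14 and 3.44 in mTEClo) and Aldh1a3 (3.08-fold), which make retinoic acid, were higher in cTEC, as was Cyp26b1 (20.6 and 19.5 CPM in cTEC against 0.973, 2.03 and 1.11 in mTEClo), which degrades it. Its relative Cyp26a1 (9.14-fold), the retinol uptake receptor Stra6 (3.84-fold) and the receptor Rarb (2.30-fold) were higher in mTEClo. Of the steroid receptors, the progesterone receptor Pgr (83.7 ± 2.72 against 16.6 ± 3.71 CPM) and the glucocorticoid receptor Nr3c1 (2.12-fold) were higher in cTEC and the vitamin D receptor Vdr (1.77-fold) in mTEClo. The list as a whole gave 13 toward cTEC and 8 toward mTEClo of 33.

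Adhesion and guidance molecules distinguished the populations gene by gene. Among junction genes, 20 of 38 were higher in mTEClo and 7 in cTEC. Claudins 3, 4 and 7 (Cldn3, Cldn4, Cldn7) of tight epithelia were 2.64-fold, 2.59-fold and 3.05-fold higher in mTEClo, as were the gap junction protein Gjb2 (3.39-fold) and Epcam, used in the sort (451 and 512 CPM in cTEC, 848, 801 and 853 in mTEClo). The cadherins Cdh4 (177 and 110.1 CPM in cTEC, 14.2, 19.1 and 16.6 in mTEClo) and Cdh11 (2.46-fold) were higher in cTEC and E-cadherin, Cdh1, in mTEClo (1.42-fold). Integrins and laminins split 12 to 9 of 31, with the integrins Itga8 (40.5 and 40.0 CPM in cTEC, 3.52, 4.41 and 4.53 in mTEClo) and Itga4 (7.16-fold) higher in cTEC and Itgb8 (4.06-fold) and Itgb6 (3.27-fold), which activate TGF-beta, higher in mTEClo. Of 52 guidance genes, 14 were higher in cTEC, led by the ephrin receptor Epha3 (36.3 and 24.1 CPM in cTEC against 2.04, 2.19 and 2.14 in mTEClo) and Sema3c (4.07-fold), and 22 in mTEClo, led by the Slit receptor Robo2 (6.17-fold) and Sema6a (5.72-fold). Voltage-gated channels gave 22 toward mTEClo and 7 toward cTEC of 38. Beside Scn1a, the potassium channel Kcna1 was higher in cTEC (28.6 and 22.1 CPM in cTEC against 2.12, 2.16 and 2.15 in mTEClo), and the T-type calcium channel Cacna1h (1.65 and 0.695 CPM in cTEC, 53.4, 47.6 and 46.6 in mTEClo) and the sodium channel Scn3a (26.7-fold) were higher in mTEClo.

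**Figure D4:**
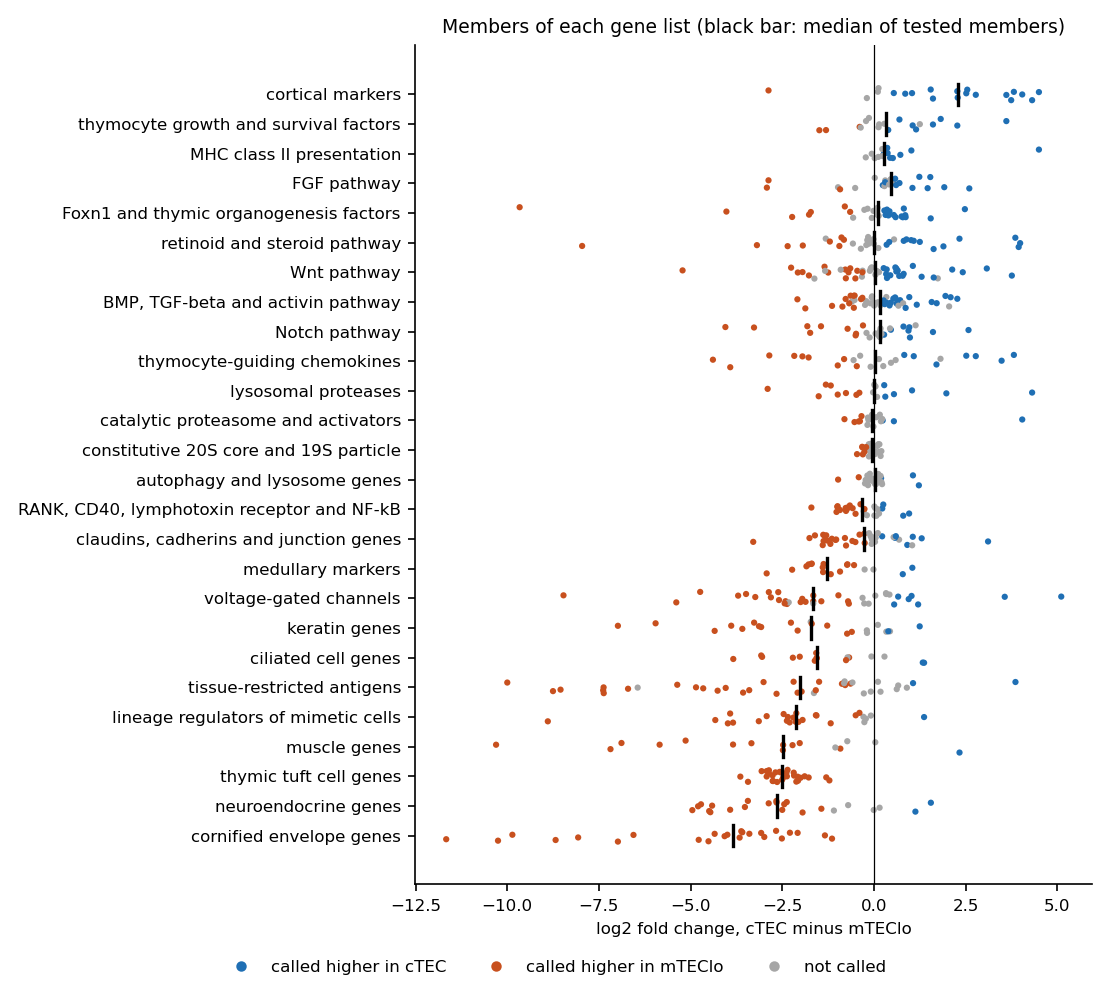
Log2 fold change, cTEC minus mTEClo, of each tested member of 26 gene lists, with 1 point per gene, coloured by call, and a black bar at the median of the tested members. The medians run from 2.28 for cortical markers to -3.83 for cornified envelope genes, and the proteasome core and autophagy lists lie close to 0.

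Lists of general cell functions had medians near 0, with members in both directions. The medians lay between -0.13 and 0.24 for antioxidant, unfolded protein response, heat shock, immediate early, interferon-stimulated, cell cycle, ribosomal protein and oxidative phosphorylation genes. Oxidative phosphorylation genes passed in 2 (cTEC) and 5 (mTEClo) of 33, ribosomal proteins in 2 and 10 of 40, and unfolded protein response genes in 1 and 5 of 27. Without mTEClo 1 or mTEClo 2, the counts toward mTEClo fell to 1 for oxidative phosphorylation and to 4 for ribosomal proteins. These counts also depended on which cTEC library was kept, in fits that measure no spread in cTEC. Without cTEC 2 they rose for all 3 lists, and without cTEC 1 they fell for oxidative phosphorylation and ribosomal proteins. Toward cTEC, the shares of these 3 lists lay under the 22.4% of all genes tested. Toward mTEClo, the share of all genes tested was 25.9%. Single members differed more. The antioxidant enzyme Nqo1 was higher in cTEC (96.7 and 96.6 CPM in cTEC against 17.4, 17.2 and 16.4 in mTEClo) and the secreted peroxidase Gpx3 in mTEClo (558 and 684 CPM in cTEC, 1712, 1751 and 1893 in mTEClo), with 13 (7 without mTEClo 2) and 8 of 32 antioxidant genes in all. Immediate early genes passed in 2 (1 without cTEC 1 or mTEClo 2) and 9 of 24, with Egr3 (10.2-fold) and Egr2 (3.17-fold) higher in mTEClo, whereas Fos, which cell isolation is known to induce, averaged 5352 ± 106 CPM in cTEC and 5773 ± 401 in mTEClo. Interferon-stimulated genes passed in 6 and 10 of 31, led by Cxcl9, Oasl1 (2.63-fold) and Irf7 (1.70-fold) in mTEClo and by Ifit1 (1.57-fold) in cTEC. In the cell cycle list, 9 and 9 of 34 passed: the inhibitors Cdkn2a (2.11 and 4.78 CPM in cTEC, 18.1, 16.7 and 15.7 in mTEClo), Cdkn2b (4.9-fold), Cdkn1c (3-fold) and Cdkn1a (2.22-fold) were higher in mTEClo, and the mitotic Birc5 (3.98 and 6.15 CPM in cTEC against 2.44, 1.92 and 1.90 in mTEClo) and the replication gene Rrm2 (2.07-fold) in cTEC, at low levels. Heat shock genes passed in 5 (3 without mTEClo 1) and 3 of 19 and complement genes in 2 and 8 of 20, with C1s 3.12-fold higher in mTEClo.

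Markers of cells other than epithelium were detected in both populations, and some moved with the contrast. Of 24 thymocyte genes, 11 were higher in cTEC (7 without cTEC 2, 6 without mTEClo 2, 3 without mTEClo 3) and 1 in mTEClo (none to 2 without 1 library), with summed levels of 217 to 271 CPM in cTEC and 164 to 217 CPM in mTEClo. Rag1 was at 21.7 and 22.6 CPM in cTEC and 13.0, 6.70 and 6.14 in mTEClo and Dntt at 11.2 and 20.1 CPM in cTEC and 5.95, 3.50 and 2.83 in mTEClo, while Ptprc, the CD45 gene against which the sort selected, was at 25.8 and 32.6 CPM in cTEC and 23.7, 26.1 and 24.4 in mTEClo. Of 19 genes of dendritic cells and macrophages, 5 were higher in cTEC (3 without mTEClo 1 or mTEClo 3) and 4 in mTEClo (2 without mTEClo 2, summed 156 to 195 and 167 to 170 CPM). Flt3 was at 4.18 and 4.02 CPM in cTEC and 0.341, 0.446 and 0.308 in mTEClo and Itgax at 2.91 and 2.79 CPM in cTEC and 0.693, 1.76 and 0.987 in mTEClo, in the direction of Cd83, Ccl22 and Ccl5. The call of Itgax was lost without mTEClo 1 or mTEClo 3 (edgeR adjusted p = 0.06 and 0.0548). Fibroblast and pericyte genes went both ways, 8 of 14 toward cTEC and 5 toward mTEClo (summed 1849 to 2327 and 1712 to 1945 CPM). Toward cTEC were Dcn (856 and 746 CPM in cTEC, 146, 179 and 196 in mTEClo), Col1a2 (33.4 and 22.1 CPM in cTEC and 3.32, 4.51 and 5.08 in mTEClo) and Col3a1 (2.23-fold), the direction of Ogn, Prelp and Serpinf1. Toward mTEClo were the pericyte and smooth muscle genes Rgs5 (35.7 and 17.8 CPM in cTEC, 238, 243 and 220.0 in mTEClo) and Acta2 (5.44-fold) and the matrix gene Fbn1 (2.49-fold). Of 7 B cell genes tested (summed 8.73 to 10.3 and 46.2 to 49.7 CPM) 3 were higher in mTEClo (5 without cTEC 2), Cr2 (21.95-fold), Cd79b (4.91-fold) and Fcer2a (4.63-fold), while the defining Ms4a1 averaged 0.0590 CPM there. Endothelial genes (summed 32.2 to 128 and 86.1 to 116 CPM) passed in none of 10 toward cTEC and in 2 toward mTEClo. The 2 cTEC libraries lay apart here, with summed levels of 32.2 CPM in cTEC 1 and 128 CPM in cTEC 2. The direction of the list depended on which of them was kept, toward cTEC without cTEC 1 and toward mTEClo without cTEC 2. Pecam1 was uneven in cTEC (3.36 and 34.7 CPM), its log2 fold change being 0.30 with both libraries and -2.21 without cTEC 2. Leaving out each library in turn took Pecam1 from -2.21 to 1.16. Of 6 erythroid genes listed, 2 passed the filter and none was called, and the alpha-globin genes Hba-a1 and Hba-a2 had no read in any of the 5 libraries. The part of these cells in the differences was not tested.

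The most abundant transcripts were largely shared. Of the 15 genes with the highest RPKM in each population 13 were the same, led by B2m (3859.6 RPKM in cTEC, 4424 in mTEClo), the light chain of MHC class I, and by Cd74 (3557 and 3156 RPKM). Ctsl and Bpifa1 were in the cTEC set alone and Krt17 and Fcgbp, a mucus protein, in the mTEClo set alone. Fcgbp stood at 1288 RPKM in mTEClo and 290.1 in cTEC, the log2 fold change being -2.09. Ctsl stood at 1349.9 and 684 RPKM.

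The same 2 populations of psmb11-/- mice, which share no library with the wild-type contrast, gave a further set of values. Their cTEC libraries held 74148029 (knockout 1) and 67810047 (knockout 2) reads in genes. Reads in no gene made up 30.4% and 19.9% of these 2 libraries, and 5757 and 8541 genes had no read. The part of either library in the differences below was not tested. In these mice, cTEC against mTEClo (2 against 3 libraries, Psmb11 left out) gave 1015 genes higher in cTEC (5.84% of 17393 tested by edgeR) and 844 higher in mTEClo (4.85%). Of the genes called at least 2-fold higher in wild-type cTEC and tested in the knockout, 986 of 1044 (94.4%) had the same direction and 524 were also called, none in the opposite direction. Of those at least 2-fold higher in wild-type mTEClo, 2011 of 2514 (80.0%) had the same direction, 501 were called and 24 were called in the opposite direction. Log2 fold changes in the knockout were smaller toward mTEClo, with a median of -0.85 for genes whose wild-type median was -2.29, against 1.31 and 1.64 toward cTEC. The wild-type values chose these genes, so their smaller size elsewhere is no test of a difference. In the knockout Prss16 had a log2 fold change of 3.63, Kitl of 2.59, Cd83 of 3.58 and Scn1a of 4.26. Tuft genes were called in 10 of 29 (median -0.79), with Pou2f3 at -0.71 and Trpm5 at -0.93, and cornified envelope genes in 13 of 24 (median -1.59), with Krt10 at -2.13. Ciliated genes had a median of 0.76 there, with 4 of 16 called toward cTEC and none toward mTEClo, and tissue-restricted antigens a median of 0.0035, with 5 called toward cTEC and 4 toward mTEClo of 37. A fit of all 10 libraries with voom and a weight per library called the difference between the 2 contrasts in 249 of 17820 genes (1.40%), 245 of them shifted toward cTEC and 4 toward mTEClo in the knockout.

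**Figure D5:**
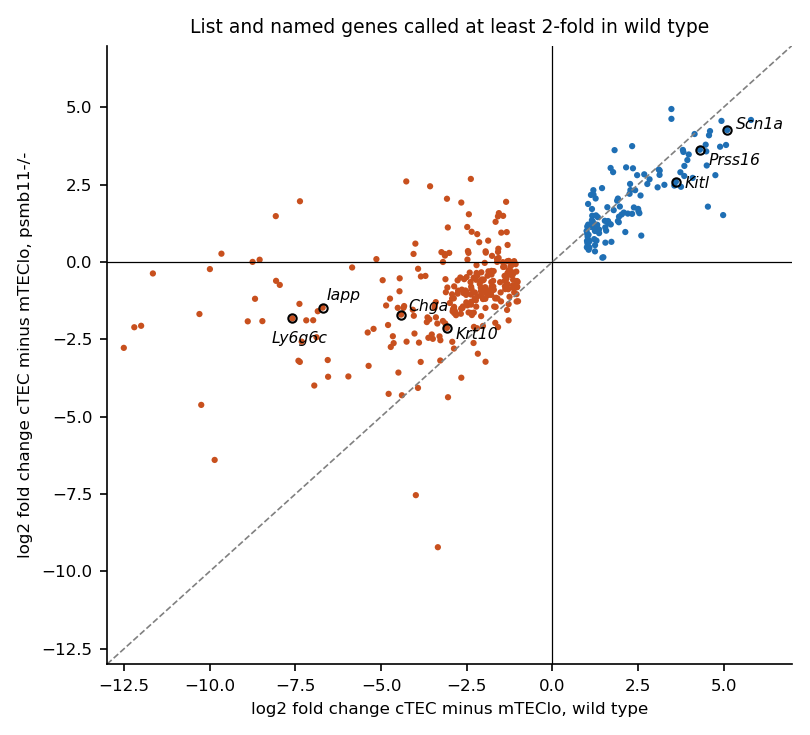
Log2 fold change, cTEC minus mTEClo, in psmb11-/- against wild type, for the 391 list or named genes called at least 2-fold in wild type and tested in the knockout, with the dashed line marking equal values. All 121 genes higher in wild-type cTEC lie above 0 in the knockout, and 223 of the 270 genes higher in wild-type mTEClo lie under 0, most of them nearer to 0 than in wild type.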

How the data were processed

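Whole-gene read counts deposited by the authors were used. Per the submitters' processing notes, base calling used CASAVA 1.8.2 and counting HTSeq 0.5.4p1 on mm10; the order of steps and the aligner are not given in the sources used here. The 5 rows naming no gene were left out of library sizes. RPKM values deposited by the authors were used only to compare levels between genes and for positions. The 5 libraries were fitted alone in edgeR 4.0.16 (R 4.3.3) with TMM scaling, filterByExpr, the quasi-likelihood test of the current method, no covariate and Benjamini-Hochberg adjustment at 0.05. Alternatives were fits with all 16 libraries, other scalings and filters, DESeq2 1.42.0, limma 3.58.1 voom and each library left out. Deviations from the population mean were not correlated between samples of the same replicate number (-0.009 and -0.005). This rests on 1 difference between the cTEC libraries and cannot show whether the samples were paired. The scripts were run on simulated data, with results not given here. The main fit gives each gene 1 spread for both populations, although the cTEC libraries varied more. Voom with a weight per population called 3288 genes toward cTEC and 3530 toward mTEClo, and kept 81.9% of the main calls.

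Genes are named by this rule: among genes past 0.05 with at least a 2-fold difference, no overlap and at least 5 CPM, the 12 largest folds and 8 smallest p-values per direction, from each list, per direction, at most 4 called members of smallest p at 1 CPM or more, and its 2 most abundant members, and 12 fixed markers. Other list members were named after their values were seen, and a few genes that the rule names are not reported here. The contrast, its lists and its members were chosen with earlier results of these data known. Promoter sequences and names come from RefSeq, GRCm38.p6.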

Additional observations from a re-analysis of the deposited data

Results flagged for a closer look

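For 27 named genes the contrast of cTEC against mTEClo differed between psmb11-/- and wild-type mice in a test of the difference itself (limma voom with a weight per library, 10 libraries, Benjamini-Hochberg adjusted p under 0.05, called in 249 of 17820 genes). Of those 249, 245 were shifted toward cTEC in the knockout and 4 toward mTEClo. All 27 were shifted toward cTEC, which the choice of most of them by a large wild-type difference toward mTEClo sets in part. The values that follow are this shift, knockout minus wild type. Among genes of tuft and microfold-like cells, it was 1.87 for Trpm5, 1.84 for Avil, 2.25 for Gnat3, 2.11 for Plcb2, 1.54 for Alox5, 1.79 for Spib and 2.66 for Ccl9. Among genes of surface and glandular epithelia, it was 1.60 for Dsg1a, 1.70 for Sprr1a, 5.79 for Ly6g6c, 1.69 for Cldn7, 1.96 for Gjb2 and 2.88 for Cdx1. Among secretory, neuronal and ciliated genes, it was 5.23 for Iapp, 2.05 for Syt1, 1.72 for Gfra2, 2.19 for Entpd3 and 1.81 for Foxj1. The medullary regulator Aire had 2.72 and the costimulatory ligand Cd80 1.83, both with no difference called in wild type, and the presentation genes Ctss and Ubd had 1.17 and 1.45. The growth regulators Bmp3, Cdkn1c and Cdkn2b had 2.63, 1.87 and 1.87, and Mrc1 and Fcer2a, known from leukocytes, 2.45 and 1.90. The wild-type fold change of the other 25 genes was called toward mTEClo. The cause was not tested.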

How the results depend on the processing

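Across 21 alternative settings, 259 of the 358 named genes called kept their call in all of them. When 1 library was left out of the fit of 5, 37 lost their call. Of 8333 values of named genes, 13 reversed, that is, changed sign with a call in the main fit or in that setting. Other changes of sign were not counted, such as that of Aire, at 0.33 without mTEClo 1 in the fit of 5. In the fit of all 16 libraries, leaving out 1 cTEC library moved the counts most: 1955 genes were higher in cTEC without cTEC replicate 1 and 2222 without replicate 2, where 2954 were higher in mTEClo. Leaving out each library in turn gave 1955 to 3027 and 2954 to 3519 genes in that fit and 2960 to 4229 (cTEC) and 3509 to 5119 (mTEClo) in the fit of 5. The share of calls toward cTEC was 46.4%, and 35.7% without cTEC replicate 1 in the fit of 16. A fit with the replicate block called 3189 and 3694 genes. Whether the replicate numbers pair the samples is not known. With both genotypes and a genotype term, log2 fold changes were 1.65 for Aire, 0.82 for Cd80, -0.013 for Hspd1, 0.78 for Il7r, 0.15 for Mrc1, -0.033 for Rpl22, 0.065 for Tslp and 0.12 for Ttn, all reversed. Without cTEC replicate 2 they were -3.83 for Beta-s and -2.21 for Pecam1 (-2.26 in the fit of 16), and without cTEC replicate 1 0.31 for Lyz2 and -0.59 for Xist. Leaving out each library in turn in the fit of 5 took these genes from -3.83 to 1.42 (Beta-s), -2.21 to 1.16 (Pecam1), -1.31 to 0.31 (Lyz2) and -0.59 to 0.54 (Xist). The cause was not tested. With 2 cTEC libraries, a spread of that group rests on 1 difference, and exact tests cannot go below p = 0.1. Fits of 5 that leave out 1 cTEC library measure no spread in cTEC.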

Other observations

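The 250 bases before the start held GACGC or GCGTC in 26.7% of 925 promoters of genes at least 2-fold higher in cTEC and in 21.7% of 2172 promoters of genes at least 2-fold higher in mTEClo, with a median of 8 and 6 CpG per window, against 33.3% of promoters and a median of 13 CpG over all genes tested. The octamer stood in 1.30% and 2.90% of the same promoters. These shares are descriptions, and base composition moves with them.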
